A study of Homo sapiens with 9 samples.

Results

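The 10 genes described here are markers of secretory cells of the intestine: DEFA5, DEFA6, TFF1, TFF2, TFF3, MUC2, ATOH1, SPINK4, REG4 and CHGA. They were taken by name from the 63677 gene identifiers in the count files, and each of the 10 symbols matched 1 Ensembl identifier. Their RNA levels were measured in 3 lines of SW480, a human colon adenocarcinoma line, with 3 sequenced libraries per line. The lines were told apart by titles and genotype labels, since the treatment label names BASP1 activation for all 9 libraries, the parental ones included. SW480 libraries came from the unmodified parental line. SW480-B is 1 clone that carries the BASP1 coding sequence behind a CMV promoter in pcDNA3 and was selected with G418. In SW480-gRNA-B-all, the endogenous BASP1 promoter was activated by lentiviral dCas9-VP64 and MS2-P65-HSF1 together with pooled sgRNAs, and the cells had been through single-cell cloning and antibiotic selection. The parental cells carried none of these constructs, so BASP1 expression cannot be told apart from cloning, vectors and selection in either comparison with SW480. BASP1 is a membrane-associated signaling protein and transcriptional corepressor, and the study asked how its expression alters these cells.

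The epithelium of the intestine is renewed from stem cells in the crypts, whose daughters become either absorptive or secretory cells. The transcription factor ATOH1 opens the secretory path, which Notch signaling through HES1 closes. Paneth cells at the crypt base of the small intestine release antimicrobial peptides such as the alpha-defensins DEFA5 and DEFA6. Goblet cells release the gel-forming mucin MUC2 and the trefoil peptide TFF3, whereas TFF1 and TFF2 belong mainly to mucous cells of the stomach. SPINK4 and REG4 are secreted by goblet cells and, for REG4, also by enteroendocrine cells. Enteroendocrine cells store hormones in granules that hold chromogranin A, encoded by CHGA. Paneth cells are normally absent from most of the colon, but colon tumors can express their genes.

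Between 25238831 and 29355669 counts fell on genes in each library. Levels are given as CPM, the share of a library's counts on the usual per-million scale after TMM scaling. A gene with 0 counts in a library can have had up to 3 counts at this depth, equal to 0.0983 to 0.115 CPM, and this limit, like each counting interval, covers counting error only. The BASP1 level was 11.3, 8.09 and 0.688 CPM across replicates 1 to 3 of SW480, 266, 269.9 and 255 CPM for SW480-B, and 166, 308 and 305 CPM for SW480-gRNA-B-all. The 3 SW480 libraries differed among themselves, with 15.2% to 32.5% of genes more than 2-fold apart between any pair. Replicates 2 and 3 of SW480-gRNA-B-all were the closest pair, with 1.60% of genes more than 2-fold apart. The sources state that RNA was isolated in triplicate but not whether from separate cultures, so p-values measure the spread between these libraries, which may be technical. The epithelial origin was visible in all 9 libraries, where KRT18, a keratin of simple epithelia, had 1573 to 3550 CPM and EPCAM, an epithelial adhesion molecule, had 279 to 715 CPM.

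The secretory markers were present at low levels or not at all. TFF1, SPINK4 and REG4 had 0 counts in all 9 libraries. The other 7 markers had at least 1 count, and only TFF2 and CHGA were read in every library. The summed level of the 10 markers was 9.23 to 23.2 CPM in the SW480 libraries, 2.90 to 3.31 CPM in SW480-B and 0.339 to 0.778 CPM in SW480-gRNA-B-all. In bulk RNA, fewer cells that express a gene cannot be told apart from less RNA in each cell.

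Per kilobase of exon, DEFA5 had the highest level in SW480, at 21.3 ± 7.78 CPM per kb (SD, n = 3). It was followed by TFF3 at 6.19 ± 6.63 CPM per kb, TFF2 at 1.03 ± 0.43, DEFA6 at 1.00 ± 0.45 and CHGA at 0.394 ± 0.299. The SD ranges of DEFA5 and TFF3 did not overlap, whereas those of each later pair of neighbors in this order did. In SW480-B the order began with TFF2 at 2.98 ± 0.15 CPM per kb, above CHGA at 0.287 ± 0.061, and their ranges were far apart. In SW480-gRNA-B-all TFF2 stood at 0.178 ± 0.122 CPM per kb, CHGA at 0.0746 ± 0.0615 and DEFA5 at 0.0498 ± 0.0431, which do not differ beyond their spread.

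**Figure D1:**
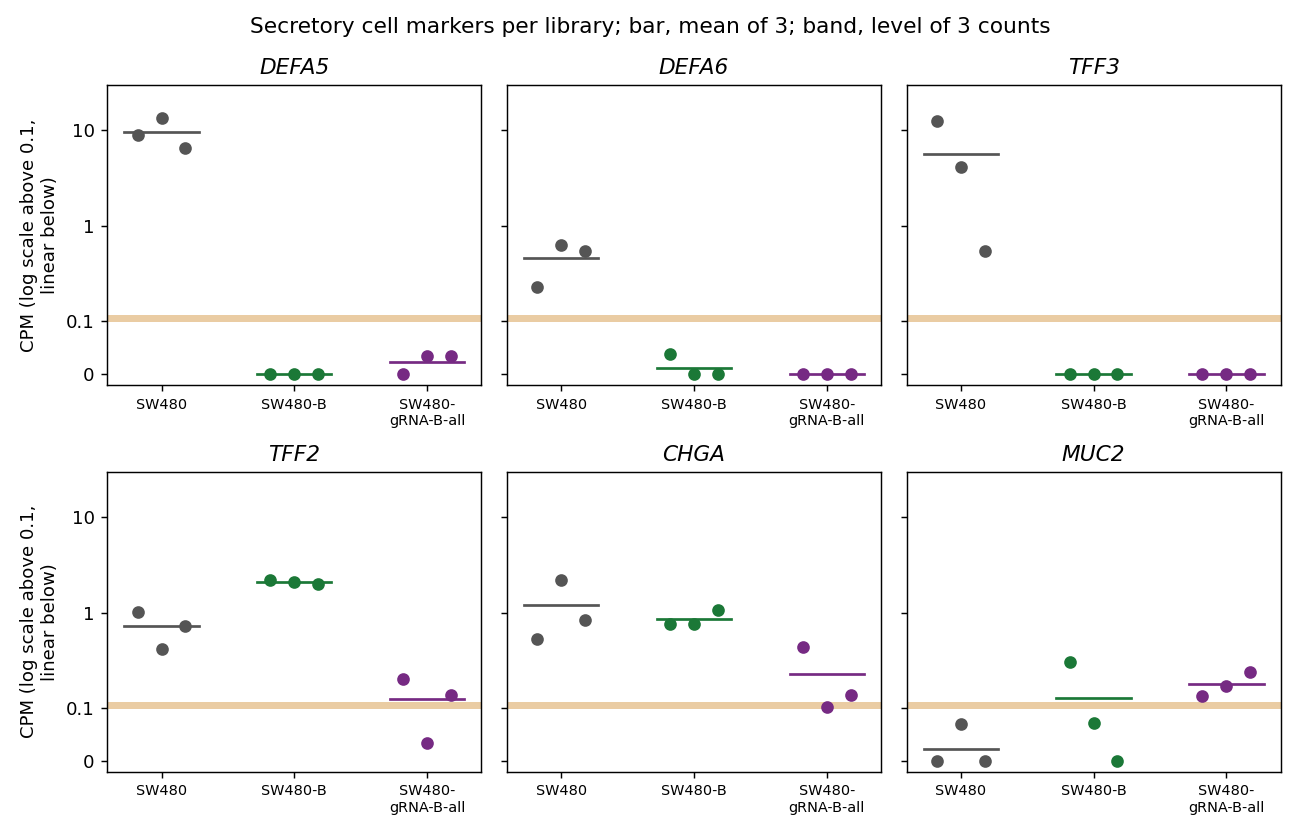
Levels of 6 markers in each library in CPM, on an axis that is logarithmic above 0.1 and linear below it. Each point is a library, each bar the mean of 3 libraries of a line, and the band the level of 3 counts, 0.0983 to 0.115 CPM. DEFA5, DEFA6 and TFF3 lie above the band in all SW480 libraries and below it in all others, whereas TFF2 is highest in SW480-B.

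ATOH1 was close to silent. It had 5 counts in replicate 2 of SW480, or 0.174 CPM, and 0 counts in the other libraries of all lines. Its gene lies on chromosome 4 of GRCh37 from 94749904 to 94752115. At these counts ATOH1 could not be compared between lines.

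CHGA was the marker of the enteroendocrine lineage, and its transcript was found in all lines. Promoters of ATOH1 and CHGA, the regulator that was nearly unread and the granule gene that was read in all 9 libraries, are shown for contrast from the RefSeq promoter table, which held entries for 5 of the 10 genes. Each run is the 250 bases before the RefSeq start on the plus strand, found once in GRCh37, at chr4:94749654-94749903 for ATOH1 and at chr14:93389245-93389494 for CHGA. Capitals mark matches on either strand to 4 motifs, CTTTGA (the core bound by TCF/LEF factors of WNT signaling), CANNTG (the E-box bound by basic helix-loop-helix factors such as ATOH1), TGTTTAC (a forkhead factor core) and TATAAA (the TATA box), none of which overlapped another here.
ATOH1: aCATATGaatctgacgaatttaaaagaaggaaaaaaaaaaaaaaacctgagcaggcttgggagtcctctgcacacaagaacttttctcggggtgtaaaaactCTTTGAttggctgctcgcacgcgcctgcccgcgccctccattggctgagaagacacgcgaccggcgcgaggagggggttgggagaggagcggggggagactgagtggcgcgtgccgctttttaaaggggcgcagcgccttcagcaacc
CHGA: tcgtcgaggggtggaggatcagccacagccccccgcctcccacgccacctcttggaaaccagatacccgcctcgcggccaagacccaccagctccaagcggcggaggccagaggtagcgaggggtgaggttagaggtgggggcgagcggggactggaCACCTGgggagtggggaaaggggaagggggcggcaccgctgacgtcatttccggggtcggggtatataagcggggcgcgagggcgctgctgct
The ATOH1 window held an E-box at position -249 and CTTTGA at -148, counted from the start site, and the CHGA window held an E-box at -93. Among all 35116 promoters of this length, 61.82% held the E-box, 11.21% CTTTGA, 2.979% TGTTTAC and 10.72% TATAAA. The CHGA window was 68.8% G and C with 21 CpG, and that of ATOH1 55.2% with 18 CpG, against medians of 58% and 11 CpG over all promoters. These matches are letters in a window and are no measurement of binding.

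SW480-gRNA-B-all, the line with reactivated endogenous BASP1, was compared with the parental line. DEFA5, DEFA6, TFF2, TFF3 and CHGA were lower in every SW480-gRNA-B-all library than in any SW480 library. These 5 genes stand beside 18.6% of the 16100 tested genes whose libraries were likewise separate and lower. MUC2 was separate in the other direction, as were 19.1% of tested genes, but at the limit of detection. DEFA6 and MUC2 had too few counts for the test, and 4 markers were tested: DEFA5, TFF2, TFF3 and CHGA. DEFA5, TFF2 and TFF3 passed the filter on low counts through their SW480 libraries alone, so their test results are a description. CHGA had enough counts in all SW480 libraries but only in replicate 1 of SW480-gRNA-B-all. By edgeR's quasi-likelihood test, with a Benjamini-Hochberg adjusted p under 0.05 and a change above 2-fold as the call, 1 of the 4, DEFA5, was called lower, beside 4.66% of tested genes called lower and 1.89% called higher. The median log2 fold change of all tested genes was -0.05.

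SW480-B, the line with ectopic BASP1, was likewise compared with SW480. In SW480-B, DEFA5, DEFA6 and TFF3 were separate and lower, and TFF2 was separate and higher. Among the 16106 tested genes 10.8% were separate and lower and 11.7% separate and higher. DEFA5 was again the 1 gene called among the same 4 tested, lower, beside 1.25% of tested genes called lower and 0.0931% called higher. DEFA5 and TFF3 again passed the filter through SW480 alone, so their test results here are also a description. With the replicate number as a block, 2 markers were called lower, DEFA5 and TFF3. Both comparisons use the same 3 SW480 libraries, so their values for a gene are not independent.

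SW480-gRNA-B-all was also compared with SW480-B directly, which sets the lines with endogenous and ectopic BASP1 against each other. These lines also differ in clone, vectors and selection, which cannot be told apart here from the source of BASP1. TFF2 and CHGA were separate and lower in SW480-gRNA-B-all, as were 15.5% of the 15846 tested genes, with 14.9% separate and higher. Only these 2 markers had enough counts for the test, and TFF2 was called lower, beside 4.37% of tested genes called lower and 2.31% called higher. TFF2 passed the filter on low counts through its SW480-B libraries alone, so its call is a description.

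**Figure D2:**
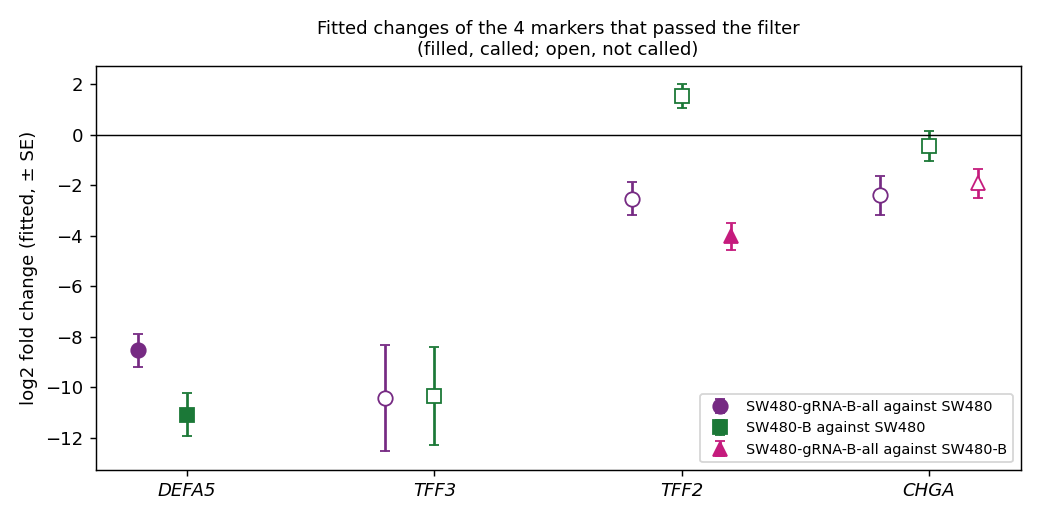
Fitted log2 fold changes with standard errors for the 4 markers that passed the filter on low counts, in each comparison where they were tested (n = 3 libraries per line). Filled symbols were called and open ones were not. DEFA5 is filled in both comparisons with SW480 and TFF2 between SW480-gRNA-B-all and SW480-B, where it lies at -4.03. Values near -10 belong to genes with 0 counts in 1 line and depend on the fit's prior count.

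Of the Paneth cell genes, DEFA5 was the best measured. Its gene lies on chromosome 8 from 6912826 to 6914261. In SW480 it reached 8.94, 13.5 and 6.59 CPM, from 273, 390 and 182 counts. In SW480-B it had 0 counts in each library, and in SW480-gRNA-B-all 0, 1 and 1 counts. The libraries of the BASP1-expressing lines thus lay below the limit of 3 counts, and those of SW480 far above it. The level in SW480 was at least 265-fold that in SW480-B, taking 3 counts over the 3 libraries as the limit. It was 430-fold that in SW480-gRNA-B-all, with a 95% counting interval of 119 to 3559. DEFA5 passed the filter on low counts through SW480 alone, so its calls are a description. In edgeR's test, the adjusted p was 0.0094 for SW480-B (fitted log2 fold change -11.1, SE 0.86) and, for SW480-gRNA-B-all, 0.0054 (-8.53, SE 0.65). Without replicate 2 of SW480 the second call was lost at an adjusted p of 0.0501 by edgeR, and the first was lost without replicate 1 (0.13) or replicate 2 (0.063) of SW480-B. Over the 12 such smaller fits, the fitted change stayed between -8.86 and -8.02 for SW480-gRNA-B-all and between -11.3 and -10.8 for SW480-B.

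DEFA6 encodes the alpha-defensin that binds bacteria in nets, and it lies at positions 6782219 to 6783598 of the same chromosome. It had 7, 18 and 15 counts in the SW480 libraries, or 0.229, 0.625 and 0.543 CPM. In SW480-B it had 1, 0 and 0 counts, and in SW480-gRNA-B-all 0 in each. As for DEFA5, SW480 lay above both other lines, which overlapped each other. The level in SW480 was 37.6-fold that in SW480-B, with a 95% counting interval of 6.37 to 1522, and at least 13.6-fold that in SW480-gRNA-B-all. The filter left DEFA6 out of both tests. With every gene of at least 1 count tested, its adjusted p by edgeR was 0.012 for SW480-gRNA-B-all and 0.015 for SW480-B, each against SW480.

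Among the mucous cell genes, TFF3 was read in SW480 alone, and unevenly. It had 380, 119 and 15 counts in the SW480 libraries, or 12.5, 4.13 and 0.543 CPM, and 0 counts in all 6 libraries of the other lines. The highest SW480 library stood 22.9-fold above the lowest, and 0.691% of 14037 genes varied at least as much within SW480. For DEFA5 the same ratio was 2.05, which 33.2% of genes reached. BASP1 was also highest in replicate 1 of SW480 and lowest in replicate 3, and the part of this difference between libraries in the result was not tested.

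The TFF3 level in SW480 was at least 161-fold that in SW480-B and at least 174-fold that in SW480-gRNA-B-all. Neither difference passed edgeR's quasi-likelihood test, with an adjusted p of 0.074 for SW480-B and 0.051 for SW480-gRNA-B-all. With the replicate number as a block the adjusted p for SW480-B was 0.019. Without replicate 3 of SW480, the library with the lowest TFF3, TFF3 was called in both comparisons, at an adjusted p of 0.0040 and 0.015 by edgeR. In each comparison this was the only call among the 6 fits that left out 1 library. The adjusted p in those fits reached 0.27 for SW480-B and 0.16 for SW480-gRNA-B-all.

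TFF2 stood highest in SW480-B and lowest in SW480-gRNA-B-all. It had 31, 12 and 20 counts in the SW480 libraries, or 1.02, 0.417 and 0.724 CPM. In SW480-B it had 57, 58 and 55 counts, or 2.19, 2.08 and 1.98 CPM, and in SW480-gRNA-B-all 6, 1 and 4 counts, or 0.203, 0.0339 and 0.136 CPM. The lines were fully separate, with SW480 between the others. Between SW480-gRNA-B-all and SW480-B the log2 fold change was -4.03 (SE 0.53, edgeR adjusted p = 0.0044), and it was called in all 6 fits that each left out 1 library, between -4.55 and -3.57. Against SW480, the difference was 1.52 for SW480-B (SE 0.48, adjusted p = 0.19) and -2.54 for the CRISPR-activated line (SE 0.65, adjusted p = 0.059) on the log2 scale, and neither was called by edgeR.

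The trefoil genes lie side by side on the long arm of chromosome 21, TFF3 from 43731777 to 43735519, TFF2 from 43766466 to 43771106 and TFF1 from 43782391 to 43786644. Their levels differed in direction between lines. In SW480-B TFF3 and TFF1 had 0 counts in every library while TFF2 had over 50. The tested genes on either side were ABCG1, a cholesterol exporter 14423 bp from TFF3, and TMPRSS3, a serine protease 5352 bp from TFF1. ABCG1 had 59.6, 34.0 and 7.64 CPM in SW480, 32.4, 32.5 and 11.3 CPM in SW480-B, and 8.59, 3.76 and 3.90 CPM in SW480-gRNA-B-all. TMPRSS3 had 3.98 to 45.8 CPM in SW480, 14.1, 13.3 and 4.49 CPM in SW480-B, and 6.39, 3.66 and 3.90 CPM in SW480-gRNA-B-all. Like TFF3, both neighbors were highest in replicate 1 and lowest in replicate 3 of SW480. Of their 6 comparisons, only that of ABCG1 in SW480-gRNA-B-all against SW480-B led to a call, at a log2 fold change of -2.24 (SE 0.49, adjusted p = 0.028, edgeR).

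Genes of this chromosome arm were lower as a whole in SW480-gRNA-B-all. The median log2 difference of 170 genes of 21q was -0.574 from SW480 and -0.530 from SW480-B, and 82.4% and 83.5% of the genes were below 0. Between SW480-B and SW480 the median was -0.015. With an offset for each chromosome arm, the call of TFF2 in SW480-gRNA-B-all against SW480-B held, at a log2 fold change of -3.44 and an adjusted p of 0.0089 by edgeR. For SW480-gRNA-B-all against SW480, the same offset took TFF2 from -2.54 to -1.93 (adjusted p = 0.12, edgeR). TFF3 then stood at -10.2 (adjusted p = 0.066, edgeR), and neither gene was called there.

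**Figure D3:**
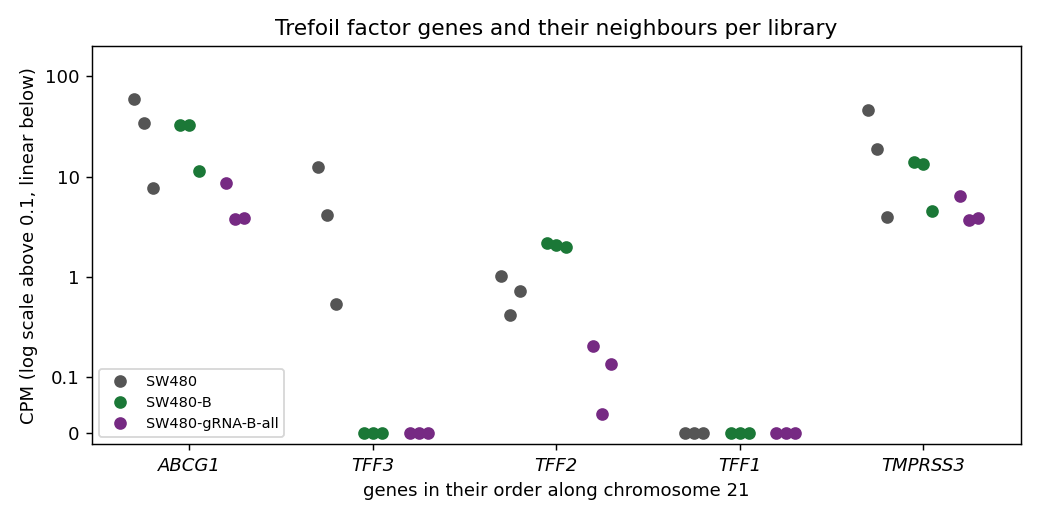
Levels in CPM of the trefoil genes and the tested genes on either side, in their order along chromosome 21, on an axis that is logarithmic above 0.1 and linear below it. Each point is a library (3 per line). TFF2 is highest in SW480-B, at 1.98 to 2.19 CPM, between TFF3 and TFF1 at 0, whereas ABCG1 and TMPRSS3 span a wide range within SW480.

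MUC2, the main mucin of the colon, was barely read. It had 0, 2 and 0 counts in the SW480 libraries, 8, 2 and 0 in SW480-B, and 4, 5 and 7 in SW480-gRNA-B-all, or 0.135, 0.169 and 0.237 CPM. SW480-gRNA-B-all lay above SW480 in every library, while SW480-B overlapped both. The ratio of SW480 to SW480-gRNA-B-all was 0.127, with a 95% counting interval of 0.014 to 0.541. MUC2 did not pass the filter, and with every gene of at least 1 count tested its adjusted p was 0.21 by edgeR. The gene lies on chromosome 11 from 1074875 to 1104416, and AP2A2, the tested gene nearest to it, was not called in any comparison.

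CHGA lies on chromosome 14 from 93389495 to 93401630. Its SW480 libraries held 0.524, 2.22 and 0.833 CPM. It had 0.769, 0.753 and 1.08 CPM in SW480-B and 0.440, 0.102 and 0.136 CPM in SW480-gRNA-B-all. SW480 and SW480-B overlapped, whereas each SW480-gRNA-B-all library was below all libraries of the other lines. The log2 fold change was -2.40 from SW480 (SE 0.76, adjusted p = 0.098) and -1.92 from SW480-B (SE 0.58, adjusted p = 0.079), and neither was called by edgeR's quasi-likelihood test. Without replicate 1 of SW480-gRNA-B-all, the highest of that line, the change from SW480-B was called at -2.82 with an adjusted p of 0.025. This was the only call among the 6 fits that left out 1 library, where the adjusted p reached 0.306 by edgeR. The change from SW480 was called in 0 of 6 such fits. Between SW480-B and SW480 it was -0.44 (SE 0.60, adjusted p = 0.76, edgeR), and 0.34 without replicate 2 of SW480.

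The remaining tested genes within 100 kb of a marker were GOLGA5 and ITPK1 beside CHGA, PHGDH and NOTCH2 beside REG4, and B4GALT1, CHMP5, NFX1 and BAG1 beside SPINK4, whose annotated span overlaps BAG1. None of them was called in any comparison by edgeR's test, and their largest log2 fold change was 1.05, for B4GALT1. Their levels stood between 31.4 and 223 CPM as line means, next to REG4 and SPINK4 at 0 counts.

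Genes whose levels followed DEFA5 and TFF3 most closely over the 9 libraries were sought among 13742 genes with at least 1 CPM on average, by Pearson's r of log2(CPM + 1). For DEFA5 these were ENSG00000233017 (r = 0.999), PCP4, a calmodulin-binding peptide (0.999), and PPP1R1B, a phosphatase inhibitor (0.997). PPP1R1B had 11.7 to 21.2 CPM in SW480 and at most 0.108 CPM in any other library. For TFF3 they were TMPRSS15, the enteropeptidase of the duodenum (0.999), A1CF, a cofactor of APOB mRNA editing (0.999), and ENSG00000231317 (0.998). TMPRSS15 had 57.1, 13.2 and 1.34 CPM in SW480 and at most 0.0719 CPM elsewhere, and A1CF had 12.8, 3.47 and 0.579 CPM and 0 counts elsewhere. These coefficients rest on the step between SW480 and the other lines and on 9 libraries that share their scaling.

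Wider lists of Paneth, goblet, enteroendocrine and tuft cell genes and of regulators of the secretory path held 77 further genes, most of them too low to test. Between SW480-gRNA-B-all and SW480, 4 of 33 tested genes were called, all lower: MUC5B, NEUROD1, FOXA2 and HES6. Over all genes tested, 4.66% were called lower and 1.89% higher. The median log2 fold change of the 33 was -0.64, against -0.05 over all genes tested. The libraries were separate and lower for 7 of the 33 and separate and higher for 6, beside 18.6% and 19.1% of all tested genes. MUC5B and NEUROD1 passed the low-count filter through their SW480 libraries alone, so their part in the count of 4 is a description. NEUROD1, which drives endocrine differentiation, had 1.83, 0.868 and 0.471 CPM in SW480 and 0 counts in SW480-gRNA-B-all, a level at least 31.9-fold lower. Of the 8 tested genes of the enteroendocrine list, 4 had a log2 fold change below 0 and 4 above. In 3 of the 8 the libraries were separate and higher, and in 1 separate and lower. MUC5B, a gel-forming mucin of airways and salivary glands, had 2.46, 4.17 and 1.20 CPM in SW480 and at most 0.102 CPM in SW480-gRNA-B-all, for a log2 fold change of -5.22 (SE 0.86). Of the 3 tested genes of the goblet list, 1 had a log2 fold change below 0 and 2 above. Among the latter, WFDC2 was separate and higher, at 1.24 (SE 0.66, adjusted p = 0.25 by edgeR), and was not called.

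HES6, a helix-loop-helix protein that opposes HES1, fell from 62.1, 38.0 and 33.4 CPM to 5.99, 7.39 and 8.62 CPM, a log2 fold change of -2.66 (SE 0.31, adjusted p = 0.0091 by edgeR). FOXA2, a forkhead factor of gut endoderm, fell from 14.6, 13.4 and 5.40 CPM to 1.69, 1.15 and 0.678 CPM, a log2 fold change of -3.29 (SE 0.54, adjusted p = 0.020 by edgeR). Each of these 4 calls held in the fits without replicate 1 or 3 of SW480 and was lost without replicate 2 of SW480 or any library of SW480-gRNA-B-all, where the adjusted p reached 0.058 to 0.120 at most, by edgeR.

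Between SW480-B and SW480, 2 of 33 tested genes were called, NEUROD1 and HES6, both lower, and the median of the 33 was -0.33, against -0.0039 over all genes tested. Of all genes in this pair, 1.25% were called lower and 0.0931% higher, and NEUROD1 again passed the filter through SW480 alone. The libraries were separate and lower for 7 of the 33 and separate and higher for 6, beside 10.8% and 11.7% of all tested genes. NEUROD1 had 0, 0 and 0.0359 CPM in SW480-B, and the ratio of SW480 to SW480-B was 88.4 with a 95% counting interval of 15.5 to 3527. The 8 tested genes of the enteroendocrine list again split into 4 below 0 and 4 above. HES6 had 6.11, 4.44 and 10.9 CPM in SW480-B, and its log2 fold change was -2.64 (SE 0.42, adjusted p = 0.029 by edgeR). Both calls held in the fits without replicate 1 or 3 of SW480 and were lost in the other 4, with an adjusted p of up to 0.233. With the replicate number as a block, the number of calls was 4.

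Between SW480-gRNA-B-all and SW480-B, 4 of 32 tested genes were called, NOD2 and BHLHA15 lower and CPE and PTGS1 higher, with a median of -0.21, against -0.0044 over all genes tested. Of all genes in this pair, 4.37% were called lower and 2.31% higher. The libraries were separate and lower for 9 of the 32 and separate and higher for 5, beside 15.5% and 14.9% of all tested genes. BHLHA15, which shapes the secretory apparatus of Paneth and other exocrine cells, had 25.6, 17.1 and 9.99 CPM in SW480-B and 1.83, 1.69 and 1.63 CPM in SW480-gRNA-B-all. It differed by a log2 fold change of -3.37 (SE 0.38, adjusted p = 0.0026 by edgeR), and it was called in all 6 fits that left out 1 library. In SW480 it had 12.5, 5.03 and 1.38 CPM, a range that reached from the level of one line to that of the other. NOD2, a sensor of bacterial peptidoglycan in Paneth cells, had 7.63 to 10.4 CPM in SW480-B and 2.03 to 3.87 CPM in SW480-gRNA-B-all. CPE, which trims peptide hormones, had 0.346 to 0.609 CPM in SW480-B and 1.52 to 2.31 CPM in SW480-gRNA-B-all. With single libraries left out, the call of NOD2 held in 2 of 6 fits, that of CPE in 4 of 6 and that of PTGS1 in 0 of 6, where its adjusted p by edgeR was 0.056 to 0.166.

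**Figure D4:**
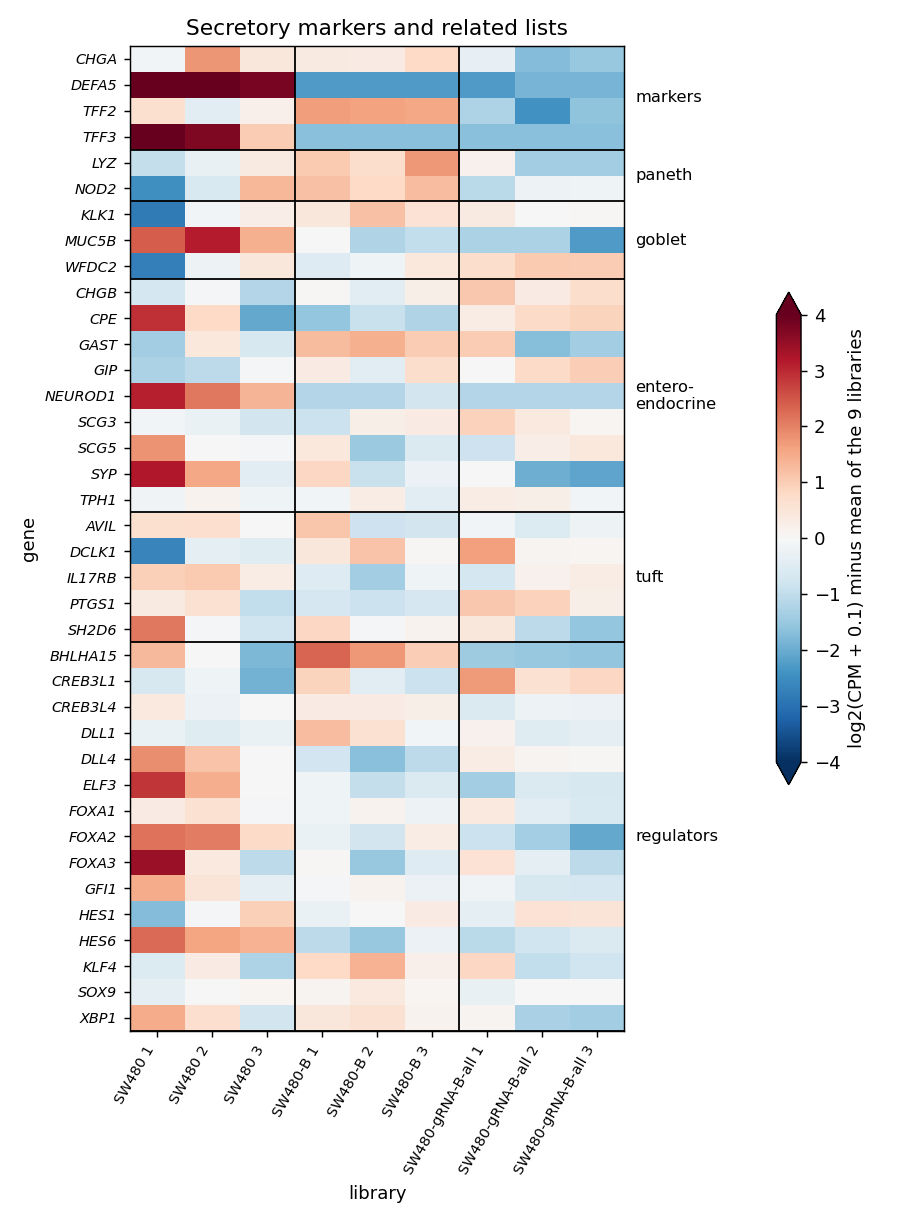
Levels of the tested secretory markers and wider list genes in each library, as log2(CPM + 0.1) minus the gene's mean over the 9 libraries, with colors saturated at 4 and -4. Rows are grouped by list and vertical lines part the lines. HES6, FOXA2 and NEUROD1 are red in the SW480 columns and blue in most others, and BHLHA15 is reddest in SW480-B.

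The wider lists leave out the 10 markers. By the mean over the 9 libraries, 1 gene of each list had its highest level per kilobase. These were LYZ, the lysozyme of Paneth cells, WFDC2 for goblet cells, SYP, a vesicle protein, for enteroendocrine cells, DCLK1 for tuft cells and SOX9, a factor of crypt base and Paneth cells, among the regulators. On this scale the marker DEFA5 stood above LYZ, at 7.13 against 0.926 CPM per kb. TFF3 at 2.06 was below WFDC2 at 25.7, and CHGA at 0.252 was below SYP at 1.30. WFDC2 and SOX9 led in each line, whereas the leading gene of the Paneth, enteroendocrine and tuft cell lists differed between lines. SOX9 had 202 to 337 CPM in all libraries and was not called in any comparison by edgeR. Its log2 fold change was 0.28 in SW480-B against SW480 and -0.31 in SW480-gRNA-B-all against SW480-B.

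Of 7 tested genes that mark the intestinal epithelium as a whole, CDX2 and VIL1 were called for SW480-gRNA-B-all against SW480, VIL1 for SW480-B against SW480, and CDX2 for SW480-gRNA-B-all against SW480-B, each time as a lower level in the line named first. The others, EPCAM, CDH1 and the keratins KRT8, KRT18 and KRT19, were not called in any of the 3 pairs by edgeR. The part of CDX2 and VIL1 in the values above was not tested. CDX2, the homeobox factor of intestinal identity, had 28.9, 30.9 and 41.7 CPM in SW480, 58.3, 67.8 and 59.2 CPM in SW480-B, and 5.51, 2.75 and 2.41 CPM in SW480-gRNA-B-all. In SW480-gRNA-B-all it changed by -3.28 (log2) from SW480 (SE 0.38, adjusted p = 0.0090) and -4.12 from SW480-B (SE 0.34, adjusted p = 0.00099), by edgeR. Like TFF2, CDX2 was thus highest in SW480-B and lowest in SW480-gRNA-B-all. VIL1, which encodes villin of the brush border, had 98.3 to 327 CPM in SW480, 29.5 to 36.1 CPM in SW480-B and 6.45 to 21.4 CPM in SW480-gRNA-B-all, and was called lower than SW480 in both lines, at log2 fold changes of -2.94 and -4.44. For SW480-gRNA-B-all against SW480, the calls of CDX2 and VIL1 were lost without replicate 2 of SW480 or replicate 2 or 3 of SW480-gRNA-B-all, at an adjusted p of up to 0.055 and 0.086 by edgeR. That of VIL1 in SW480-B was lost without replicate 2 of SW480 or any SW480-B library, at up to 0.222.

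Markers of immune, stromal and endothelial cells were low. The 11 matched of 12 had a summed level of 8.47 to 10.7 CPM in SW480, 5.39 to 12.5 CPM in SW480-B and 13.1 to 15.4 CPM in SW480-gRNA-B-all, with 3 at 0 counts throughout SW480-B and 5 throughout SW480-gRNA-B-all. LUM, a matrix proteoglycan, had 6.16, 2.12 and 0.978 CPM in SW480, 1 count in SW480-B and 0 in SW480-gRNA-B-all, and was called lower in both. It passed the filter on low counts through SW480 alone, so its calls are a description. COL1A1, a fibrillar collagen chain, had 3.34 to 4.35 CPM in SW480 and 7.88 to 10.9 CPM in SW480-gRNA-B-all, and was called higher there at 1.21 (SE 0.25). The calls of LUM and COL1A1 held without replicate 1 or 3 of SW480 and were lost without any other library, at an adjusted p of up to 0.222 by edgeR. Their part in the marker values was not tested.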

How the data were processed

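Poly(A) RNA of 9 samples was sequenced by a company as stranded paired reads and aligned to GRCh37. The deposited counts are whole numbers of fragments per Ensembl gene, not normalized, and lines naming no gene (5.22% to 9.93% of a library without a feature, 3.09% to 3.44% ambiguous) stayed out of library sizes. Per the file headers, the metrics files deposited beside them hold aligned bases, a coverage signal. They also put 99.1% to 99.4% of reads on the correct strand. Counter and strand setting are not given in the sources used here. All libraries carry 1 batch label.

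Symbols for 55665 of 63677 identifiers came from a separate list of gene names, and exon lengths and coordinates from GENCODE 44 lifted to GRCh37. Each pair of lines was tested over its own 6 libraries with edgeR 4.0.16 in R 4.3.3 (filterByExpr with least count 10 and least total 15, TMM, glmQLFit robust, glmQLFTest, Benjamini-Hochberg over all genes tested). A gene was called at an adjusted p under 0.05 and a change above 2-fold, and SE was obtained by dividing the log2 fold change by √F. The scripts were tested on simulated data. CPM values were scaled by TMM over 9 libraries. A line at 0 counts was set to 3 counts over its libraries.

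Same-numbered libraries of SW480-B and SW480 deviated together (correlations 0.296, 0.343 and 0.403), a hint from the data since the labels only number replicates, and the blocked fit is given beside results of that pair where it changes a call. Alternatives were RLE factors, other filters, 1 fit of 9 libraries, the block, each library left out, DESeq2 1.42.0, arm offsets, a sum of the closest SW480-gRNA-B-all replicates (2 and 3), and other thresholds.

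The 10 markers, the lists and the rules were chosen with earlier results of these data known. The text names all markers, per list and comparison up to 4 called genes with the largest change, the gene of each list highest per kb, the 3 genes most like each marker with a mean of at least 1 CPM, and tested protein-coding genes within 100 kb. FCGBP, PECAM1 and PRSS2 of the lists were not matched.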

Additional observations from a re-analysis of the deposited data

Results flagged for a closer look

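The change from SW480 differed between the BASP1-expressing lines for 6 genes of the marker lists, by edgeR's test of SW480-gRNA-B-all against SW480-B, in which the shared SW480 libraries cancel. The change in SW480-gRNA-B-all minus that in SW480-B was -4.03 on the log2 scale for TFF2 (SE 0.53), -3.37 for BHLHA15 (SE 0.38) and -4.12 for CDX2 (SE 0.34), each called in all 6 fits that left out 1 library. It was -1.54 for NOD2 (SE 0.31), called in 2 of 6 such fits with an adjusted p of up to 0.079. It was 2.05 for CPE (SE 0.38), called in 4 of 6 with an adjusted p of up to 0.088. For PTGS1, a prostaglandin synthase of tuft cells, it was 1.72 (SE 0.41, adjusted p = 0.036), and the call was lost in all 6 fits, with an adjusted p of 0.056 to 0.166. TFF2 passed the filter on low counts through SW480-B alone, so its part in the count of 6 is a description. No cause was tested for these differences.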

How the results depend on the processing

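Of the 10 markers, the filter on low counts left 4 to test in each comparison with SW480 and 2 between SW480-gRNA-B-all and SW480-B. In the fits that left out 1 library, the number of markers called ran from 0 to 2 for SW480-gRNA-B-all against SW480, from 0 to 2 for SW480-B against SW480 and from 1 to 2 for SW480-gRNA-B-all against SW480-B. The genes called in all ran from 8 to 2659, from 0 to 921 and from 420 to 1548, and the wider list genes from 0 to 11, from 0 to 9 and from 1 to 7. In the first comparison the fewest genes were called without replicate 2 of SW480 and the most without replicate 3. In the second, edgeR called 0 genes without replicate 1 or replicate 2 of SW480-B, where 1951 and 1676 had an unadjusted p under 0.05, and the most without replicate 3 of SW480. The log2 fold change of CHGA between SW480-B and SW480 ran from -0.79 to 0.34, the latter without replicate 2 of SW480.

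For SW480-gRNA-B-all against SW480 (1 marker, 4 wider list genes and 1055 genes called), DESeq2 called 5 markers, 12 list genes and 2380 genes, and an adjusted p under 0.10 gave 4, 7 and 1887. With no filter on low counts 2 markers were called, and with all 9 libraries in 1 fit 3. With the replicate block 3 were called, among them TFF3 (adjusted p = 0.019) and TFF2 (0.041). The libraries of this pair share only a number, with correlations of 0.298, -0.034 and 0.277. With the closest SW480-gRNA-B-all libraries, replicates 2 and 3, added together, edgeR called 97 genes and 0 list genes, of which 10 had an unadjusted p under 0.05. Levels per kb moved by less than 1 SD with library totals in place of TMM.

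For SW480-B against SW480 (1, 2 and 216 called), no filter gave 2 markers, 6 list genes and 735 genes, and DESeq2 gave 4, 8 and 1096. All 9 libraries in 1 fit gave 4 list genes and 452 genes, a filter of at least 1 CPM in 3 libraries 1 and 143, and an adjusted p under 0.10 gave 2 markers and 413 genes. The replicate block gave 2 markers and 4 list genes.

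For SW480-gRNA-B-all against SW480-B (1, 4 and 1059 called), no filter and an adjusted p under 0.10 each gave 2 markers. All 9 libraries in 1 fit gave 1 list gene and 654 genes, the summed replicates 1 and 446, DESeq2 7 list genes, and the replicate block 9, where the correlations were 0.248, -0.104 and 0.263. The cause of these changes was not tested. TFF2 in this comparison was called in all 8 other fits, and the direction of DEFA5, TFF3 and TFF2 held in every fit run.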

Other observations

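Genes of absorptive cells, the other branch of the epithelium, were read at low levels or not at all. Of 20 such genes, CA1, CA4, CEACAM7, MS4A12, CLCA4 and TMIGD1 had 0 counts in all 9 libraries. The summed level of the 20 was 2.57 to 5.97 CPM in SW480, 1.81 to 2.80 CPM in SW480-B and 1.62 to 2.78 CPM in SW480-gRNA-B-all. GUCA2A, the guanylin precursor, was the highest of them per kilobase by the mean over the 9 libraries, which SW480 alone carried. It had 0.360, 0.243 and 0.181 CPM in SW480 and 0 counts in the other 6 libraries.

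DCLK1, a kinase that marks tuft cells and is also made in neurons, had the highest mean level of the tuft cell genes over the 9 libraries. It had 26.8, 129 and 119 CPM in SW480, 227, 367 and 171 CPM in SW480-B, and 518, 179 and 175 CPM in SW480-gRNA-B-all. All 6 libraries of the BASP1-expressing lines exceeded the 3 SW480 libraries, but the change was not called in either comparison, with an adjusted p of 0.24 for SW480-B and 0.16 for SW480-gRNA-B-all by edgeR's quasi-likelihood test.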
